A study of Drosophila melanogaster with 2 samples.

Results

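Binding of the forkhead protein CHES-1-like was described at the starts of non-coding RNA genes of *Drosophila melanogaster*. Every gene that Ensembl's BDGP6 annotation, release 115, gives the biotype ncRNA on the 7 major chromosome arms was taken, and a window of 500 bp each side of its start was set against the deposited peak summits. The rule gave 3289 starts out of 18277 gene starts of all biotypes other than transposable elements. They were divided by whether the transcription start site (TSS) of a protein-coding gene lay within 1000 bp, which held for 936 starts, here called near, and not for 2353, here called isolated. The rule itself used no binding value, though it was chosen with earlier results of these data known.

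The biotype is wider than long non-coding RNA. Of the 3289 starts, 260 belonged to microRNA genes, 481 to unnamed records of mature microRNAs with a median length of 22 nt, and 46 to other RNAs whose longest transcript was under 200 nt. The remaining 2502 genes had a transcript of 200 nt or more and are called long ncRNA genes below. By their FlyBase names, 1945 of them were lncRNA genes, 503 were antisense (asRNA) genes, 7 were Uhg genes, which host small nucleolar RNAs, and 47 had other names. Of the long starts, 735 were near and 1767 isolated.

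Chromatin immunoprecipitation followed by sequencing (ChIP-seq) had been done on whole embryos aged 0 to 24 h, males and females pooled, of 1 transgenic line that stably expresses CHES-1-like with GFP at its C-terminal end. An antibody to GFP was used, so the tagged protein was measured. The 2 samples, biological replicates 2 and 3, form 1 group with no second condition, and neither the cell type nor the embryonic stage in which a site was bound can be told from whole embryos of this age span. The main list, thresholded by the authors on agreement between the replicates, held 4599 peaks, while the pooled list and each replicate list held 30000 entries of peaks and background.

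Long non-coding RNAs are transcribed by RNA polymerase II, as messenger RNAs are, but carry no long open reading frame. In flies some of them act on chromatin, such as the roX RNAs of dosage compensation, and others serve mainly as precursors from which microRNAs or small nucleolar RNAs are cut. Many start close to a protein-coding promoter, on the opposite strand, so a protein bound there lies within reach of both genes. CHES-1-like is a transcription factor with a forkhead domain, a fold that in many family members recognises sequences close to the forkhead motif used below.

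The DNA under 8 summits is shown first, since the results turn on these sites and on the motifs searched in them. Each run is 201 bases centred on the summit, from the dm6 assembly, 5′ to 3′ on the strand of the non-coding gene. Capitals mark a motif match on either strand, of 5 searched in all. They were the forkhead string GTAAACA, the DNA replication-related element (DRE) written TATCGATA, the core of promoter Motif 1, which reads GGTCACACT, the repeat GAGAGAG, here called GAGA, and the E-box, whose letters are CAGCTG. None of these strings holds another. The first 3 sites have the highest signal among isolated long ncRNA starts, and no motif was found in them.
lncRNA:CR44619, chrX:12751321-12751521, plus strand: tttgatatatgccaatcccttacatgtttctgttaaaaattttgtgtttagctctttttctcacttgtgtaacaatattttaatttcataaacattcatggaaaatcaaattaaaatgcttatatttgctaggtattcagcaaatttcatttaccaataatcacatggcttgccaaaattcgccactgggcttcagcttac
lncRNA:CR31840, chr2L:14023980-14024180, minus strand: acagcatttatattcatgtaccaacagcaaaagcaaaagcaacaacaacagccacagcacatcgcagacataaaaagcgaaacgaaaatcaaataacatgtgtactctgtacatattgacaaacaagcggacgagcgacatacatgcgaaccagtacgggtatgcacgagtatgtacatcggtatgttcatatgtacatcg
lncRNA:CR31044, chr3R:29214357-29214557, plus strand: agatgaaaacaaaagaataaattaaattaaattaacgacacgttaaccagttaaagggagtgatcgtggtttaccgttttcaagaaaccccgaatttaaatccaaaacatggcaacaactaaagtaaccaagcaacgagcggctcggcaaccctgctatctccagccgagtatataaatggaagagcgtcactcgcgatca

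The next 2 sites are among the strongest near a coding TSS. That of sisRNA:CR46364, shared with the ribosomal protein gene RpS27, holds an E-box, and that of lncRNA:CR45168, shared with tral and sti, holds none of the motifs.
sisRNA:CR46364, chr3R:25247415-25247615, minus strand: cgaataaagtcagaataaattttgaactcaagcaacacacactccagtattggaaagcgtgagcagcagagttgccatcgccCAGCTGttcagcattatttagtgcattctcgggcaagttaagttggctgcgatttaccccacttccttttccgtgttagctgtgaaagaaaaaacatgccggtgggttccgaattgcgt
lncRNA:CR45168, chr3L:12514762-12514962, minus strand: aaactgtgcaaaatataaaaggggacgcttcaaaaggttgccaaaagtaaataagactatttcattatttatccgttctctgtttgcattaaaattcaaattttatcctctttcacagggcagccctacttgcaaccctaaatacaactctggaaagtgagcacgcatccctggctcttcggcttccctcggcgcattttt

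The last 3 are the strongest sites that hold a given motif on the arms shown: a DRE near a coding TSS at asRNA:CR45865, a forkhead string near a coding TSS at lncRNA:CR45212, read there as its reverse complement, and a forkhead string at the isolated lncRNA:CR42657. The summit of lncRNA:CR42657 lay 473 bp upstream of its start and 650 bp from the TSS of nej. That was the shortest distance from a summit to a coding TSS among the 62 bound isolated long starts.
asRNA:CR45865, chr3L:16612320-16612520, minus strand: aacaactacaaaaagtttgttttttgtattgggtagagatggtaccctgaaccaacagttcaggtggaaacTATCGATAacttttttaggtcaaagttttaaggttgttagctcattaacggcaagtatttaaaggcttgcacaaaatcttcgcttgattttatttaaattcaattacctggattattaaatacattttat
lncRNA:CR45212, chr3R:16049535-16049735, minus strand: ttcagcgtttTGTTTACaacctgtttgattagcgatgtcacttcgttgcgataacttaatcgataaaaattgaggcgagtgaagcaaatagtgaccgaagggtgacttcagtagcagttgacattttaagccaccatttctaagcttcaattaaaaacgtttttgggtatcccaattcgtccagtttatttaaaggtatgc
lncRNA:CR42657, chrX:9687616-9687816, plus strand: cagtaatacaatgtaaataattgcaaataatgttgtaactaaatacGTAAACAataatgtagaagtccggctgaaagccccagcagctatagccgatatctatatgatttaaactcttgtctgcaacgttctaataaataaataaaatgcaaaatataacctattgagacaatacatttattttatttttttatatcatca

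CHES-1-like was found at a small share of non-coding starts, and the share depended on whether a coding promoter was close by. A start is called bound where a thresholded summit lay within 500 bp of it. Of all 3289 ncRNA starts 221 were bound, or 6.72% (exact Clopper-Pearson 95% interval, 5.89 to 7.63). The same window held a summit at 19.8% of all gene starts and at 24.0% of protein-coding gene starts. Near a coding TSS 140 of 936 ncRNA starts were bound, or 15.0% (12.7 to 17.4), and away from one 81 of 2353, or 3.44% (2.74 to 4.26).

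Restricted to long ncRNA genes, 114 of 735 near starts were bound, or 15.5% (13.0 to 18.3), and 62 of 1767 isolated starts, or 3.51% (2.70 to 4.48). As a reference without any gene start of their own, 11.2% of all bases within 1000 bp of a coding TSS lay within 500 bp of a thresholded summit, so most of the share at near starts was also met at bases around coding promoters in general. Of the bases over 1000 bp from every coding TSS the share was 1.19%, or 1.23% with arm Y left out, and over the 7 arms as a whole it was 3.17%. The share at isolated long starts lay above that of such bases over the whole arms, which are not their own surroundings (densities around the starts are given below). It lay below that of coding starts with no other coding TSS within 1000 bp, of which 12.8% were bound. Coding starts with another gene's coding TSS within 1000 bp were bound in 39.3% of cases. The intervals cover counting error over starts only, and no test was made between the classes, since starts are not replicates. Nearby starts can share 1 summit.

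**Figure D1:**
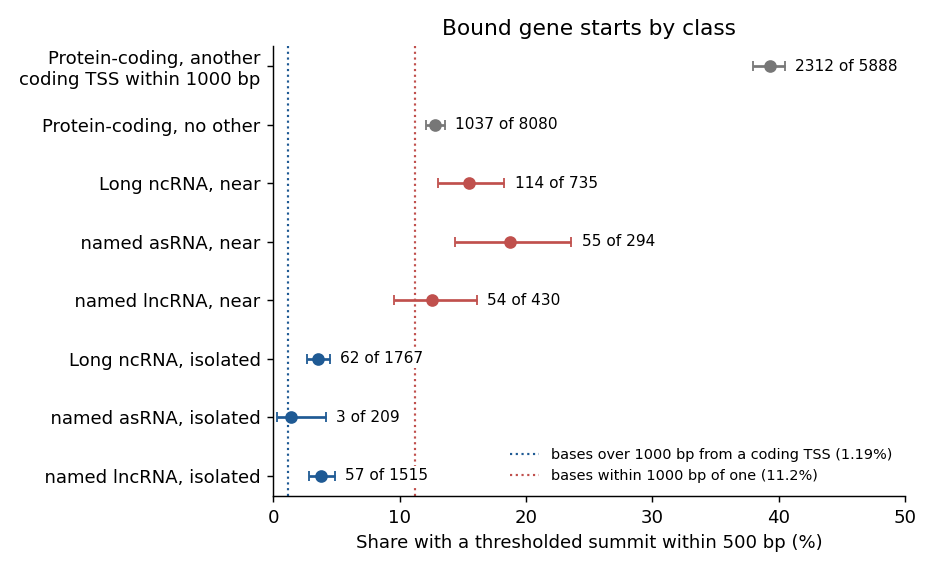
Share of gene starts with a thresholded summit within 500 bp, in %, by class, with exact 95% intervals and the bound and total numbers of starts. Dotted lines give the share of bases over 1000 bp from a coding TSS (1.19%) and within 1000 bp of one (11.2%) that lie in such a window. Isolated long ncRNA starts (3.51%) sit below protein-coding starts with no other coding TSS nearby (12.8%).

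The share bound was lower farther from a coding TSS, from 27.9% in the closest distance class to 2.63% in the farthest. It was 27.9% of 111 long ncRNA starts within 100 bp of one, 19.3% of 161 at 101 to 250 bp and 19.8% of 167 at 251 to 500 bp. At 501 to 1000 bp it was 6.42% of 296 starts, at 1001 to 2000 bp 5.22% of 364, at 2001 to 5000 bp 3.70% of 567, and beyond that 2.63% of 836. The step lay at 500 bp, the size of the window, and not at the 1000 bp that divides near from isolated. Just inside that limit, at 900 to 1000 bp, 3 of 54 starts were bound, and just outside, at 1001 to 1100 bp, 4 of 57. Protein-coding starts, placed by the distance to another gene's TSS, showed a step at the same distance from a higher level, from 46.7% at 251 to 500 bp to 17.7% at 501 to 1000 bp.

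**Figure D2:**
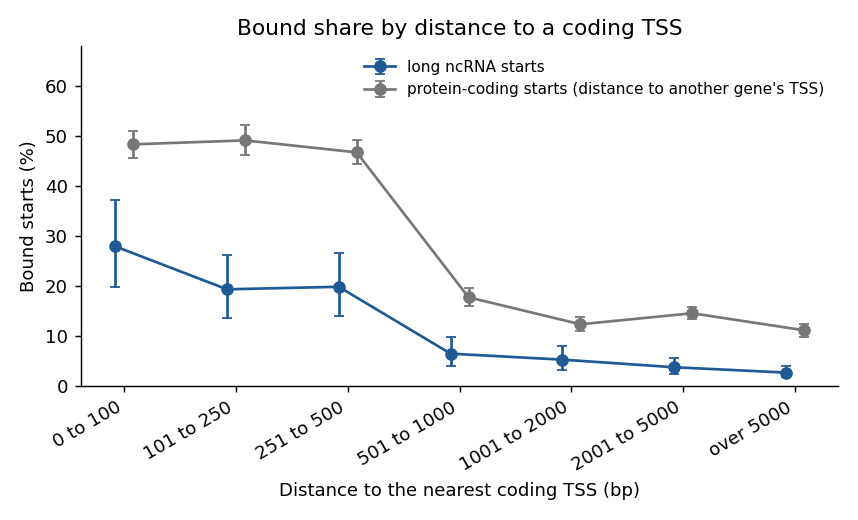
Share of bound starts, in %, in 7 classes of distance to the nearest coding TSS, for long ncRNA starts and for protein-coding starts (distance to the TSS of another gene). Bars are exact 95% intervals. Both series drop beyond 500 bp, the long ncRNA starts from 19.8% to 6.42%.

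At most near starts the summit could not be assigned to the non-coding gene. Of the 114 bound near starts, 100 had their nearest summit also within 500 bp of a coding TSS. The nearest summit was closer to the coding TSS at 62 starts, closer to the ncRNA start at 48 and equally close at 4. The median distance was 122 bp to the coding TSS (lowest 1, highest 914) and 192 bp to the ncRNA start (3 to 500). When summits within 500 bp of any coding TSS were left out, a choice made after the data were seen, 19 of the 936 near starts kept a summit, or 2.03%. This removes bases from near windows and none from isolated ones, so the 2.03% is not set against the isolated share; densities per base that allow for this are given below.

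The strand arrangement of each gene pair was also compared. Among near long starts, 52 of 386 in the head-to-head arrangement, with the coding gene upstream on the opposite strand, were bound (13.5%, 10.2 to 17.3). Antisense starts downstream of the coding TSS were bound in 43 of 232 cases (18.5%, 13.8 to 24.1). On the same strand the counts were 13 of 63 downstream of the TSS (20.6%, 11.5 to 32.7) and 6 of 54 upstream of it (11.1%, 4.19 to 22.6). The intervals of all 4 arrangements overlap. By name, 55 of 294 near asRNA starts (18.7%, 14.4 to 23.6) and 54 of 430 near lncRNA starts (12.6%, 9.58 to 16.1) were bound. Among isolated starts it was 3 of 209 asRNA starts (1.44%, 0.297 to 4.14) and 57 of 1515 lncRNA starts (3.76%, 2.86 to 4.85), again with overlapping intervals.

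**Figure D3:**
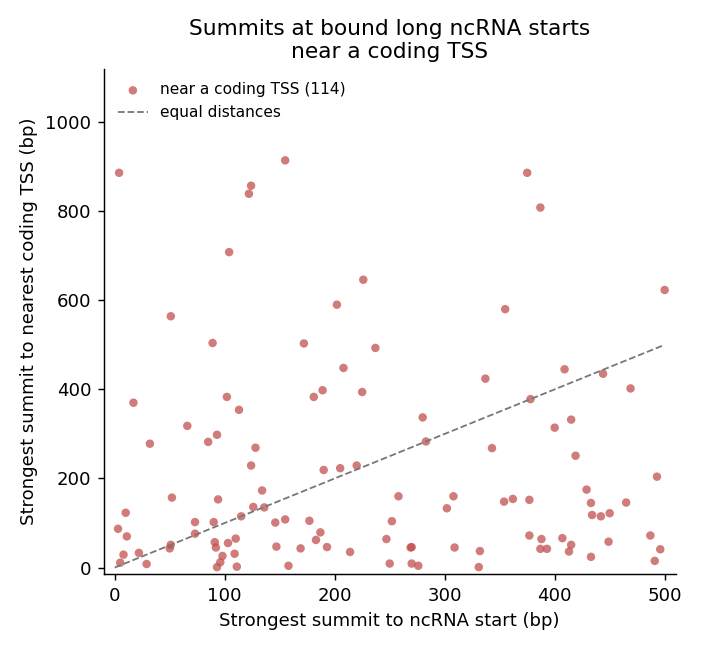
Distance in bp from the strongest thresholded summit to the ncRNA start (horizontal) and to the nearest coding TSS (vertical) for the 114 bound long ncRNA starts near a coding TSS. Points below the dashed line lie closer to the coding TSS, and most points lie within 500 bp of both starts.

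The 3 strongest near sites were shared with mRpL41, eIF6 and RpS27, all genes whose products belong to ribosomes or their assembly. The signal, the authors' own value per peak, is comparable only within a list; its median was 130 over all thresholded peaks (84.2 to 2442), 138 at bound coding starts and 124 at bound near long starts (85.3 to 1346). At lncRNA:CR44463 on arm 2R the summit, of signal 1346 and rank 7, lay 433 bp downstream of the RNA start. This RNA is 201 nt long, so the summit lay past its end. The coding TSS nearest to the RNA start was that of CG8079, at 184 bp. From the summit, 145 bp away, it was that of mRpL41, which encodes a protein of the mitochondrial ribosome. The summit had signal 790 and rank 7 in replicate 2, and signal 557 and rank 10 in replicate 3. At asRNA:CR45928 the summit (signal 972, rank 28) lay 73 bp from the RNA start and 102 bp from eIF6, a factor of ribosome assembly, with rank 29 in replicate 2 and rank 24 in replicate 3. At sisRNA:CR46364 it lay 1 bp from the TSS of RpS27 (signal 702, rank 55), with ranks 77 and 38. The replicates placed each of these 3 sites within their first 100 peaks.

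Further down the near list, asRNA:CR43257 shared its summit with Reg-5 (signal 541), lncRNA:CR44149 with brwl (499) and an unnamed mature microRNA record with jigr1 (482). The start of lncRNA:CR45168 lay 50 bp from a TSS of tral, which encodes an RNA-binding regulator of translation. The strongest summit of this RNA (400) lay 47 bp from a TSS of sti, which encodes a kinase of cytokinesis. asRNA:CR43470 and the Mediator subunit gene MED4 (385) shared a summit 10 bp from the RNA start. lncRNA:enrr begins at the very base at which elav, the gene of a neuronal RNA-binding protein, has a TSS, and its summit lay 283 bp upstream of both (382). asRNA:CR45927 with CG8187 (325) and lncRNA:CR44966 with the ribosomal protein gene RpL22 (315) completed the 12 strongest, together with lncRNA:CR45668. In these 12 the strongest summit lay between 1 bp (RpS27) and 646 bp (Act5C) from a coding TSS.

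A few near sites lay outside the window of 500 bp around a coding TSS, at 503 to 914 bp from it. Of the 14 bound near long starts whose nearest summit was over 500 bp from every coding TSS, the strongest was lncRNA:CR45668, with a summit 226 bp upstream of its start and 646 bp from Act5C, which encodes a cytoplasmic actin (signal 357, rank 275). Uhg4 followed, with a summit 51 bp upstream of its start and 564 bp from Boot (signal 306), then asRNA:CR45908, 375 bp upstream (282), and asRNA:CR46194, 387 bp upstream (170). At lncRNA:CR44127 the summit lay 4 bp from the RNA start and 886 bp from CG7881 (101).

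Isolated long starts were bound rarely, at signals in the range of other peaks. Their median signal was 144 (84.9 to 1272), beside 130 for all thresholded peaks. A signal of 300 or more was found at 4 of the 62 and at 12 of the 114 near starts. Among all 4599 thresholded peaks, that cut falls between rank 393 (signal 306) and rank 422 (signal 297). The nearest summit lay a median of 228 bp from the RNA start and 3094 bp from the nearest coding TSS. It was upstream of the start in 33 cases and downstream in 29, within 100 bp in 14.

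The strongest isolated site was that of lncRNA:CR44619 on arm X. Its summit lay 446 bp upstream of the start and 5104 bp from the nearest coding TSS, that of CG4004, with signal 1272 and rank 11. The signal was 750 (rank 10) in replicate 2 and 533 (rank 11) in replicate 3. The summit of lncRNA:CR31840 on arm 2L lay 19 bp inside the RNA and 2921 bp from hll, with signal 1020 and rank 23. In replicate 2 it had signal 556 and rank 27, and in replicate 3 signal 471 and rank 20. The third, lncRNA:CR31044 on arm 3R, contains mir-279 and mir-996, microRNAs known in flies for restricting the formation of certain sensory neurons. Its summit lay 105 bp upstream of the RNA start and 5715 bp from eEF1gamma (signal 742, rank 44; rank 52 in replicate 2 and 48 in replicate 3).

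After these 3 the signal dropped to 307 at asRNA:CR45281, followed by lncRNA:CR44867 (297), lncRNA:CR44380 (294) and lncRNA:CR44676 (291). The microRNA gene mir-9378, inside CG17124, had a summit of 285. lncRNA:CR43399 lies inside ena, which encodes a regulator of actin filaments, and had a summit 95 bp upstream of its start (282). lncRNA:CR44363 (276), lncRNA:CR46102, which lies inside the lipophorin receptor gene LpR2 on the other strand (272), and lncRNA:CR44339, whose nearest coding gene is the Polycomb group gene Psc (246), closed the 12 strongest. Their ranks in replicate 3 ran from 390 at lncRNA:CR46102 to 1217 at lncRNA:CR44339, and in replicate 2 from 248 at lncRNA:CR44867 to 630 at lncRNA:CR46102.

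Summits were denser close to isolated starts than farther out. Counted per Mb of bases over 500 bp from every coding TSS, there were 42.4 summits within 200 bp of an isolated long start (exact Poisson 95% interval, 28.6 to 60.6, from 30 pairs of a summit and a start). At 200 to 1000 bp the density was 30.3 (24.2 to 37.5), and at 1000 to 3000 bp it was 21.6 (18.1 to 25.6). A summit in range of several starts was counted for each, so the pairs are not independent and these intervals can be too narrow. The intervals of neighbouring ranges overlap. Single bins of 200 bp in the outer range went from 6.45 to 42.5, so 1 outer bin was as high as the centre. Such bases of all arms held 13.9 summits per Mb, less than each of the 3 ranges, though 5 of the outer bins were lower. Around near long starts, counted over the same kind of bases, the density within 200 bp was 68.6 (29.6 to 135), from only 8 pairs. At 200 to 1000 bp it was 34.9 (21.3 to 53.9), and at 1000 to 3000 bp the interval ran from 18.9 to 32.4. These intervals overlap those of isolated starts. Seen from the peaks, 188 of the 4599 thresholded summits lay within 500 bp of a long ncRNA start (4.09%). Of the 1704 summits over 500 bp from every coding TSS, 81 did (4.75%, 3.79 to 5.87).

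**Figure D4:**
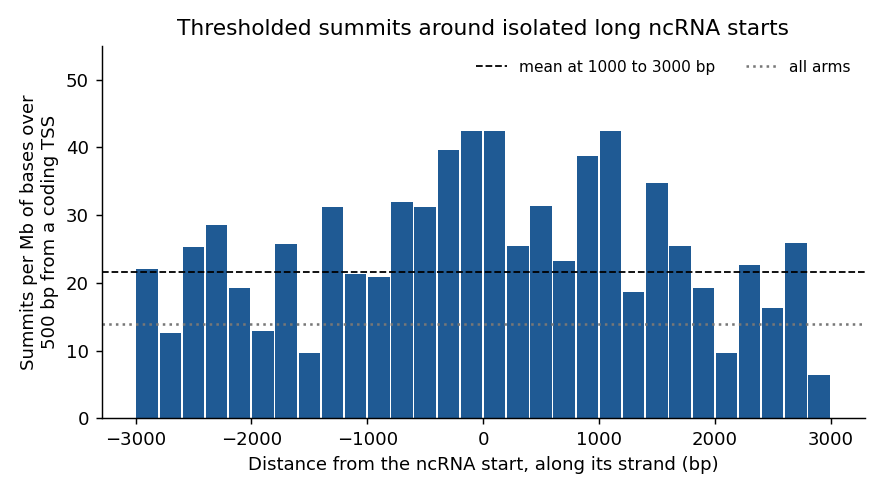
Thresholded summits per Mb of bases over 500 bp from a coding TSS, in bins of 200 bp along the strand of the 1767 isolated long ncRNA starts. The dashed line is the mean at 1000 to 3000 bp (21.6) and the dotted line that of all arms (13.9). The 2 central bins stand at 42.4 per Mb, and the bin just beyond 1000 bp downstream stands as high.

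Presence in both replicates was set in large part by the selection, since the thresholded list was made from agreement between them, so the members are given beside all thresholded peaks. A summit within 100 bp of the thresholded one was listed in both replicate lists for 110 of the 114 near long starts, and in that of replicate 2 alone for 4. For the isolated starts it was 60 of 62, with 1 in replicate 2 alone and 1 in replicate 3 alone. Of all 4599 thresholded peaks 4322 were so listed in both, beside 96.5% of the near and 96.8% of the isolated bound starts. Among the best 4599 peaks of each replicate, the length of the thresholded list, the summit was found for 108 near starts in replicate 2, 86 in replicate 3 and 81 in both. For isolated starts these counts were 50, 53 and 42. In percent of the bound starts, both replicates had 71.1% of near ones (61.8 to 79.2) and 67.7% of isolated ones (54.7 to 79.1), beside 69.4% of all thresholded peaks. Over all gene starts, the best 4599 peaks of replicate 2 fell within 500 bp of 19.1% and those of replicate 3 of 19.9%.

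**Figure D5:**
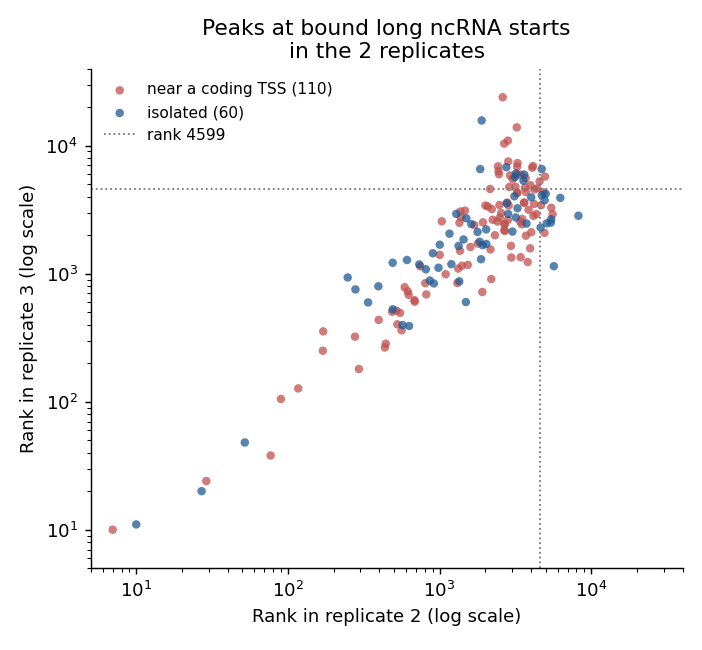
Rank of the matched summit in the list of replicate 2 (horizontal) and replicate 3 (vertical), both on log scales, for the 110 near and 60 isolated long ncRNA starts found in both lists. Dotted lines mark rank 4599. Ranks run from 7 to 8236 in replicate 2 and from 10 to 23871 in replicate 3, and the strongest sites lie close to the diagonal.

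The pooled list added weaker sites. Any pooled summit lay within 500 bp of 930 of the 3289 ncRNA starts (28.3%, against 48.1% of all gene starts), and one with a deposited q-value under 0.05 at 401 (12.2%, against 30.4%). For near long starts these shares were 46.9% and 24.5%, and for isolated ones 22.9% and 7.92%. At 78 isolated long starts there was a pooled summit of q under 0.05 and no thresholded one. No pooled summit at all was listed for 1363 of the 1767 isolated long starts (77.1%). The list ends at 30000 entries, so a start without one is below the range reported and not shown to be unbound.

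Coding promoters that share their surroundings with a long ncRNA start were also compared. Of coding starts with no other coding TSS within 1000 bp, 102 of the 532 with a long ncRNA start in that range were bound (19.2%, 15.9 to 22.8), and 935 of the 7548 without one (12.4%, 11.7 to 13.2). Of coding starts with another coding TSS in range, 87 of 203 with a long ncRNA start were bound (42.9%, with a lower limit of 36.0) and 2225 of 5685 without (39.1%, 37.9 to 40.4). In the first class the intervals do not overlap and in the second they do.

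Of 21 names of well-known RNAs listed, 17 were found as genes of the biotype, and 2 of the 17 were bound (11.8%, 1.46 to 36.4, beside the 19.8% of all gene starts). Both are among the 16 that are isolated (12.5%, 1.55 to 38.3, beside the 3.51% of isolated long starts), and these intervals are wide. Hsromega, the heat shock RNA that organises nuclear omega speckles, had a summit 308 bp inside the RNA, of signal 128 and rank 2353, with rank 3024 in replicate 2 and 2132 in replicate 3. roX1, an RNA of the complex that raises transcription of the male X, had 2 summits, the stronger 178 bp inside the RNA with signal 101 and rank 3483, and ranks 3117 and 4019 in the replicates. Hsromega thus lay close to the median signal of the thresholded list, 130, and roX1 in its weaker part. roX2, which acts in the same complex as roX1, had no thresholded summit and a pooled one of rank 9395 (q 0.0608). The sleep-related RNA yar had a pooled summit of rank 8882 (q 0.0468).

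RNaseMRP:RNA, which takes part in ribosomal RNA processing, had a pooled summit of rank 10219 (q 0.0937). The pooled summits of noe, acal and let7C had ranks of 22104, 23159 and 23719 and q-values of 0.589 to 0.638; acal is a regulator of dorsal closure, and let7C carries the developmental timing microRNA let-7. No pooled summit was listed within 500 bp of bxd, iab4 or iab8 of the bithorax complex, of cherub, CRG or sphinx, of the RNase P RNA, or of either gene of 7SL RNA, part of the signal recognition particle. The 28 long ncRNA genes that start within the spans of the Hox clusters had no thresholded summit at any start (0 of 28, upper exact limit 12.3%). Among these 28 are bxd, iab4, iab8 and both 7SL RNA genes named above, which were taken by position alone. Of these, 27 are isolated, so the count is near what the 3.51% of all isolated long starts would give.

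Host genes of small RNAs were bound in part. Of 10 hosts of small nucleolar RNAs, 4 were bound (40.0%, 12.2 to 73.8, beside the 19.8% of all gene starts). They were 3 of 5 near hosts and 1 of 5 isolated ones, beside 15.5% and 3.51% of near and isolated long starts. The bound hosts were Uhg4 (signal 306), Uhg5 (124), Uhg8 (104) and the isolated Uhg3 (94.2). At Uhg4 the signal was 180 in replicate 2 and 126 in replicate 3, while at Uhg3, whose summit lay 10 bp inside the RNA, it was 46.5 and 43.8. Uhg8's summit lay 42 bp from CG5199 and 387 bp from its own start. Uhg1 and Uhg2 had pooled summits of rank 6367 and 5900 and none thresholded.

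Of 37 microRNA hosts 7 were bound (18.9%, 7.96 to 35.2), close to the 19.8% of all gene starts. Of the 33 isolated hosts 6 were bound (18.2%, 6.98 to 35.5), beside 3.51% of all isolated long starts. The numbers are small and no test was made. lncRNA:CR31044 (signal 742) led them. asRNA:CR46194 (170) holds mir-281-1 and mir-281-2, and Hsromega (128) holds mir-4951. lncRNA:CR43334 holds mir-ban, bantam, a microRNA that promotes growth and blocks cell death, and had a summit 233 bp upstream of its start (121). That site differed between the replicates, with rank 5673 in replicate 2 and 1144 in replicate 3. lncRNA:CR43314, with mir-bft (89.5), lncRNA:CR43857, with mir-275 (88.4), and lncRNA:CR43651, with mir-14 (87.4), lay near the lower end of the thresholded list, whose lowest signal is 84.2. Hosts of mir-1, mir-8, mir-9a, mir-124, mir-184 and mir-276a had no thresholded summit at their start. Pooled summits were listed for the hosts of mir-8 (rank 8201), mir-9a (11896), mir-1 (17183) and mir-276a (21180). None was listed for those of mir-124 and mir-184.

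The intervals of near and isolated summits overlap for each of the 5 motifs. At near summits the forkhead string (14 of 112) and the E-box (13 of 112) were found about equally often. With 200 bp each side the E-box was the more frequent of the 2 (18.8% against 14.3%). The strings differ in length, so their shares do not rank them. Within 100 bp of the summit, the DRE, a promoter element bound by the factor DREF, was found at 9 of 112 distinct near summits (8.04%, 3.74 to 14.7) and at 0 of 62 isolated ones (upper limit 5.78%). It was in 2.18% of windows of that length on all near long starts, 0.567% on isolated ones, 6.44% on coding TSSs and 6.76% on all thresholded summits. Motif 1 was found at 2 near summits (1.79%) and 0 isolated ones, beside 4.26% of all thresholded summits. The forkhead string was at 14 near summits (12.5%, 7.01 to 20.1) and 2 isolated ones (3.23%, 0.393 to 11.2), beside 8.85% of all thresholded summits and 6.12% of coding TSSs. It was in 5.44% of all near start windows and 4.65% of isolated ones.

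The E-box was at 13 near summits (11.6%) and 1 isolated one (1.61%, 0.0408 to 8.66), beside 12.7% of all thresholded summits and 7.77% of isolated start windows. GAGA repeats, bound by the factor GAF, were at 10 near summits (8.93%, 4.36 to 15.8) and 5 isolated ones (8.06%, 2.67 to 17.8). For GAGA the share over all thresholded summits was 4.54%. Most isolated summits thus held none of the 5 strings, and the sequences of CR44619, CR31840 and CR31044 above are examples. By the counts per motif, the same held for most near summits and for most of all thresholded summits. The median GC content was 40.3% at near summits, 37.1% at isolated ones and 38.8% at all thresholded summits. With 200 bp each side of the summit the shares came closer, at 14.3% near and 11.3% isolated for the forkhead string, and for GAGA the order turned, at 14.3% near and 19.4% isolated. These are matches of letters, not tested sites, and the isolated shares rest on 62 windows.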

How the data were processed

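The deposited lists of peaks on the dm6 assembly were used: the thresholded list, the pooled list and 1 list for each of the 2 replicates. Per the deposited manifests, the authors made a replicate list out of the aligned reads of 1 library and a control, and the pooled list out of all of these. An irreproducible discovery rate step on the 3 lists then gave the thresholded one. Which aligner and peak caller were used is not given in the sources used here. Each peak carries the authors' signal value, on the scale of its own list, and a deposited −log10 q-value, which was turned back into q. Sequencing depth is unknown, as no file holds read counts. The control is not analysed here.

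Gene starts, 1 per gene at its 5′ end, came from Ensembl release 115, and coding TSSs from every transcript of the coding genes (19275 positions). Chromosome lengths matched the genome of release 6, and 0 peaks ran past an arm's end. Arm Y has 28 of the starts and no listed peak. Summits were overlaid with Python 3.11.15, numpy 2.4.6, pandas 2.3.3 and scipy 1.17.1, in code tested on simulated data. A summit was matched between lists within 100 bp. Shares carry exact Clopper-Pearson 95% intervals, which cover counting error over starts only. Replicates are separate biosamples of 1 line, and no p-value was computed, since 1 group gives no contrast. Genes are named as the 12 strongest near and isolated, the known RNAs, and the bound members of the host and Hox lists; other genes were named after their values were seen. The members, lists and motifs were chosen with earlier results of these data known.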

Additional observations from a re-analysis of the deposited data

How the results depend on the processing

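The share was higher at near than at isolated starts under every alternative that left the windows of both classes whole. Values for near and isolated starts are given in that order. The shares were 8.12% and 1.87% with windows of 250 bp, 25.6% and 5.99% with 1000 bp, and 6.52% and 1.83% with the thresholded peaks above the median signal. They were 20.5% and 3.98% with the dividing distance at 500 bp, and 11.7% and 2.87% at 2000 bp. With only summits over 500 bp from every coding TSS the near share was 2.03%. By its construction this filter removes bases from near windows alone and so gives no comparison. Per available base, the density within 200 bp of near long starts was 68.6 summits per Mb (29.6 to 135), from only 8 pairs. For isolated long starts it was 42.4 (28.6 to 60.6), and these intervals overlap. Without replicate 2 or replicate 3 the near share ran from 14.5% to 15.3% and the isolated share from 3.14% to 3.44%. For the pooled list, any summit was at 16.4% of starts within 250 bp and at 41.0% within 1000 bp, and one of q under 0.05 at 7.02% and 19.4%. Among motifs at 50 bp each side, near summits had the forkhead string in 6.25%, GAGA in 3.57% and the E-box in 6.25%, and isolated ones had the forkhead string in 0% and the E-box in 0%. At 200 bp each side isolated summits had the forkhead string in 11.3%, GAGA in 19.4% and the E-box in 9.68%, and near ones had them in 14.3%, 14.3% and 18.8%, so the order of near and isolated turned for GAGA. A match within 50 bp found 200 of the 221 bound starts in replicate 2 and 183 in replicate 3, against 220 and 212 within 100 bp, and a match within 200 bp found 221 in each. Of 56 alternative values 21 moved, judged by the interval of a share, by 1.5 times for a count and by 1 SD for a median distance, and 35 did not. The restriction to long transcripts, to arms other than Y and to summits away from coding TSSs was chosen after seeing the data. No paired analysis was possible because there is 1 group.

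Depth is unknown, so no limit can be put on binding at a start without a listed summit. The antibody measured a tagged protein from a transgene, and no untagged sample is analysed here beside it. Most near starts share their window with a coding promoter. Starts were taken from transcript models of the annotation, and their use in embryos of this age was not tested.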

Other observations

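The short members of the biotype were bound at shares whose intervals overlap those of the long ones. Of 787 starts of RNAs under 200 nt, 45 were bound (5.72%, exact Clopper-Pearson 95% interval 4.20 to 7.58), beside 176 of 2502 long starts (7.03%, 6.06 to 8.11). Among microRNA genes, 8 of 63 near starts (12.7%, 5.65 to 23.5) and 7 of 197 isolated ones (3.55%, 1.44 to 7.18) were bound. The records of mature microRNAs gave 14 of 110 (12.7%) and 12 of 371 (3.23%). These records can lie inside the microRNA genes and their hosts, so the same summit can count for several of them, and the annotated start of a microRNA gene is an end of its hairpin and not a promoter.

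By chromosome arm, the bound near long starts were 36 of 150 on arm 2R (24.0%, 17.4 to 31.6), 21 of 169 on 2L (12.4%, 7.86 to 18.4), 21 of 145 on 3L (14.5%, 9.19 to 21.3), 18 of 146 on 3R (12.3%, 7.47 to 18.8) and 17 of 114 on X (14.9%, 8.93 to 22.8). On arm 4 it was 1 of 11. Of all gene starts 19.9% were bound on 2R, and between 17.7% (X) and 21.8% (3R) on 2L, 3L, 3R and X. Of coding starts with another coding TSS within 1000 bp, 37.2% were bound on 2R and 34.3% (X) to 43.7% (3R) on those arms. Arm 2R was singled out after its value was seen, no test was made, and its interval overlaps those of 2L, 3L, 3R and X. Transcript length was alike in bound and other genes, with medians of 626 and 672 nt near a coding TSS and 667 and 667 nt away from one.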
